A study of Mus musculus with 21 samples.

Results

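M11 and M12 are a pair of cell lines recovered from spontaneous lung metastases of E0771GFP, a mouse mammary carcinoma line that carries green fluorescent protein, and they are compared here across all genes. The members are the 6 libraries that the sample titles name M11GFP and M12GFP, 3 of each line, of 21 libraries in the series. The cells of M11, M12 and the parental E0771GFP line all carry GFP, received no treatment, and grew in RPMI medium with 10% calf serum, and polyA RNA went into a stranded mRNA kit. The 3 parental libraries serve to place the levels of the pair, and they also enter the fit, its filter and its estimate of spread. The other 12 libraries (an empty vector group, ZBTB18 overexpression, and overexpression joined to doxycycline-inducible TGFBR2, given doxycycline with vehicle or with TGF-β1) enter the fit as further estimates of spread. The labels do not say whether M11 and M12 each descend from 1 clone, 1 nodule or 1 mouse. They also do not say that replicates were separate cultures. The p-values thus rest on a spread between replicates that may be technical. That spread is estimated over all 7 groups and is not that of M11 and M12 alone.

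Lines grown out from metastases of 1 parental tumour line can differ from it and from each other, because each nodule is founded by few cells and tumour cell populations are mixed in chromosome content and gene activity. Among the genes that metastasis studies often follow are the S100 calcium-binding proteins that act on the cytoskeleton, the collagens and glycoproteins of the extracellular matrix, and interferon-stimulated genes, which cells switch on through dedicated transcription factors on sensing viral nucleic acid or interferon. Cultured tumour cells also often gain or lose chromosomes or chromosome arms.

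M11 and M12 differed at 5474 of 15432 tested genes (35.5%) at an adjusted p under 0.05 (edgeR quasi-likelihood test, Benjamini-Hochberg). Of these, 2730 were higher in M11 (17.7% of those tested) and 2744 were lower (17.8%). Most differences were small: 2874 of the called genes differed by less than 1.5-fold, 1207 by 1.5- to 2-fold, 889 by 2- to 4-fold and 504 by more than 4-fold. At least 2-fold differences were found at 1393 genes (9.03%), 651 higher (4.22%) and 742 lower (4.81%) in M11. The 3 genes just inside and the 3 just outside that limit lay between 1.00093 and 1.00101 and between 0.998487 and 0.999987 on the log2 scale. The 3 libraries of M11 did not overlap the 3 of M12 at 6170 genes (40%), of which 4907 (31.8% of all) also passed the test. Fitted on the 6 libraries of the pair alone, the count of called genes was 3497. That fit has less information on spread. It also leaves out groups whose replicates lay closer together, with median SDs of 0.0946 to 0.111 on the log2 scale. Those of M11 and M12 were 0.181 and 0.19, so the spread used in the reported fit is partly that of tighter groups.

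Library totals ran from 24208569 to 44063339 counts in M11, from 33119449 to 44091369 in M12, and from 34323595 to 44136813 in the parental line. The median SD between replicates was 0.181 in M11, 0.19 in M12 and 0.2 in the parental line on the log2 scale. The root mean square log2 distance between an M11 and an M12 library was 0.83 to 1.04, above the 0.513 to 0.632 within M11 and the 0.529 to 0.623 within M12. Distances to parental libraries were larger, at 1.04 to 1.19 for M11 and 1.16 to 1.36 for M12. Parental replicate 1 had 14% of its counts on the ribosomal RNA-like gene Gm42418. As for tumour identity, the simple-epithelium keratin Krt8 stood at 163 ± 29.2 CPM (read counts scaled to library size, mean ± SD, n = 3) in M11 and 154 ± 41.6 in M12, and the mesenchymal filament gene Vim at 3823 ± 332 and 2585 ± 359 CPM. The epithelial adhesion gene Epcam was low in both lines (2.98 ± 0.265 CPM in M11 and 1.72 ± 0.344 in M12), as was Krt18 (0.334 ± 0.221 and 3.01 ± 1.04).

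**Figure D1:**
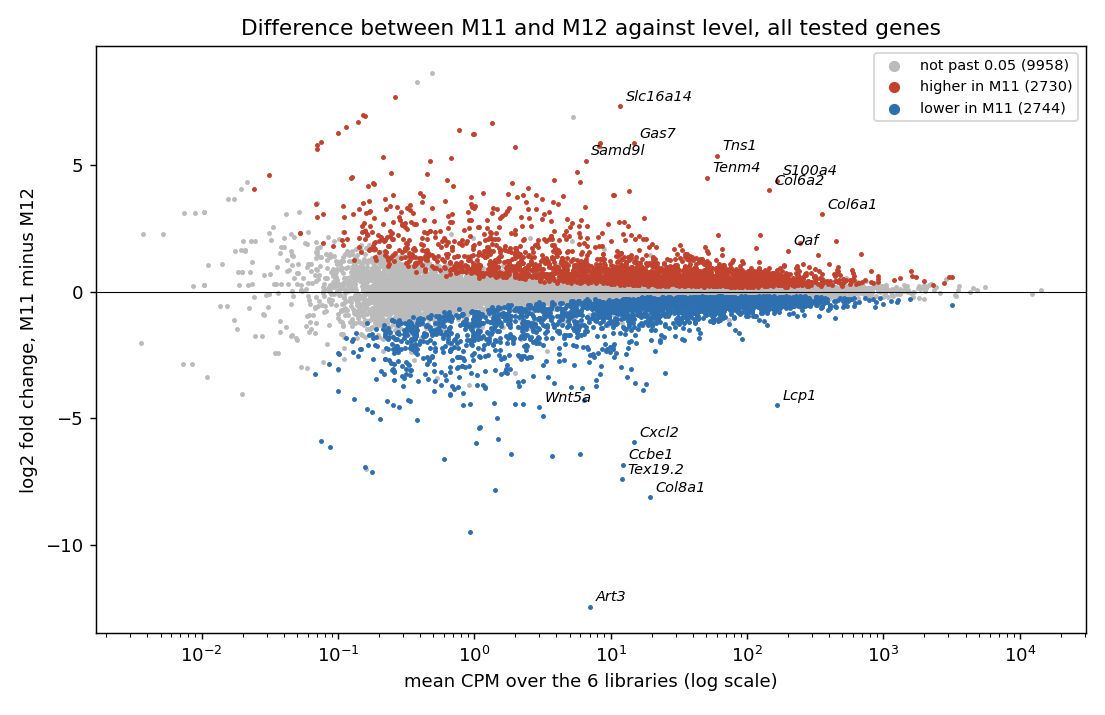
Each point is 1 of 15432 tested genes, with the mean CPM of the M11 and M12 libraries on a log axis and the log2 fold change, M11 minus M12, on the vertical axis. Red points are the 2730 genes higher in M11, blue points the 2744 lower in M11 and grey points the rest; S100a4 and Lcp1 lie far from 0 at high levels.

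S100a4, a calcium-binding protein that acts on non-muscle myosin (ENSMUSG00000001020, chromosome 3, 90603771 to 90606045, mm10), read 300.1, 415 and 239 CPM in the M11 libraries, against 17.2, 10.4 and 18.6 CPM in M12. The parental libraries held 52.8, 76.8 and 64.3 CPM, between the lines. Every M11 library was above every parental library and every M12 library below them, and the log2 fold change between the lines was 4.37 ± 0.25 (SE; edgeR adjusted p = 8e-10). Relative to the parental line, which both comparisons share, S100a4 was higher in M11 (log2 2.30) and lower in M12 (log2 -2.07). Of the 10 tested S100 genes (16 listed) 2 were higher and 4 lower in M11: S100a6, at 2152, 2167 and 1601 CPM in M11 against 1446, 1104 and 1293 in M12, was higher, while S100a16, at 0.579 ± 0.176 and 7.09 ± 3.8 CPM, was lower, together with the calprotectin subunit S100a8, S100a7a and S100a13. S100a4, S100a7a, S100a8 and S100a16 lie on chromosome 3. Of the tested S100 genes 60% were called, against 35.5% of all genes.

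Tex19.2, a placental mammal gene expressed in germ cells and placenta (chromosome 11, 121116215 to 121118677, minus strand), was nearly absent from M11. Its levels were 0.111, 0.188 and 0.122 CPM in M11, 24.5, 25.2 and 22 CPM in M12, and 15.3, 19.08 and 16 CPM in the parental line. The low level in M11 was thus seen against both other lines, and the log2 fold change, M11 minus M12, was -7.41 ± 0.20 (edgeR adjusted p = 1.3e-16). Its paralog Tex19.1, which restrains retrotransposons in the mouse germ line and lies near it on the same chromosome, stayed expressed in both lines, at 139 ± 9.77 CPM in M11 and 113 ± 6.53 in M12 (log2 0.30 ± 0.10). Since the pair are related in sequence, the split of reads between them is uncertain. The promoters of the pair (250 bases before to 50 after the start, RefSeq, GRCm38.p6) are shown with each CG dinucleotide, the site of DNA methylation, in capitals, as a description of the paralogs: chr11:121118628-121118927 for Tex19.2 (minus strand) holds 2, chr11:121145893-121146192 for Tex19.1 (plus strand) holds 16, and the median over all promoters of the table is 7. Methylation was not measured, and its part in the difference was not tested.
Tex19.2: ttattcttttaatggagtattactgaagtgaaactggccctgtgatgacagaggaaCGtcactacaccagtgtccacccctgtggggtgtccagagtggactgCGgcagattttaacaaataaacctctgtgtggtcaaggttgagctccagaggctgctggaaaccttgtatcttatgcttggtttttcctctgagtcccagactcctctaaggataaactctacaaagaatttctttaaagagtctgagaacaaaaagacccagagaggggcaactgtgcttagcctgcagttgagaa
Tex19.1: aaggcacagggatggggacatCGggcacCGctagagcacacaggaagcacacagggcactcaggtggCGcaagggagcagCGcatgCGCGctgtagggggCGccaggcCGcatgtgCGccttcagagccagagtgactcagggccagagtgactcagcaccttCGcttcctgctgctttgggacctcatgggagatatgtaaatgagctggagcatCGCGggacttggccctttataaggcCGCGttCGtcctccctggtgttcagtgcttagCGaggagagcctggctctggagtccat

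Counting genes whose higher line averaged 5 CPM or more, the 15 highest fold changes in M11 included Slc16a14, a member of the monocarboxylate transporter family. It read 23.5, 22.3 and 24.4 CPM in M11, against 0.238, 0.107 and 0.11 CPM in M12 and 0.227, 0.114 and 0.398 CPM in the parental line. Of these 3 lines M11 alone held it above 1 CPM (log2 7.31 ± 0.36, M11 minus M12). Other genes were expressed in the parental line and low in M12. Tns1, the focal adhesion protein tensin 1, read 92.9, 132 and 126 CPM in M11, 2.7, 3.18 and 2.65 CPM in M12, and 39.6, 31.3 and 31.5 CPM in the parental line (log2 5.36 ± 0.16). Its neighbour Rufy4 (chromosome 1, 74125541 to 74148223), which lies next to Tns1, read 14, 19.4 and 15 CPM in M11 against 0.327, 0.387 and 0.199 in M12. Gas7, a membrane and actin regulator (log2 5.85 ± 0.25), Tafa5, a secreted neuronal factor (log2 5.86 ± 0.30), and the teneurin Tenm4 (log2 4.48 ± 0.38) followed the order of Tns1, highest in M11, intermediate in the parental line and lowest in M12. Tle2, a Groucho-family corepressor, differed between the metastatic lines (log2 4.70 ± 0.42) while M11 stood at 8.18 to 13.7 CPM and the parental line at 8.92 to 16.5 CPM, which overlap. Gnao1, a G protein subunit (17.8, 18.3 and 22 CPM in M11 against 1.96, 1.05 and 1.17 in M12), and the urea transporter Slc14a1 (log2 4.31 ± 0.36) were instead low in M12 and in the parental line alike. The splicing regulator Mbnl3 (log2 3.81 ± 0.23) had 5.72, 4.35 and 5.82 CPM in M11 against 0.386, 0.408 and 0.331 in M12. Without M12 replicate 3 the log2 values of Tenm4 and Tle2 became 5.39 and 5.53.

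Of the genes lower in M11, Art3, an ADP-ribosyltransferase family member, had 0 reads in all 3 M11 libraries. M12 held 10.9, 19.9 and 11.6 CPM, 1820 reads in all, and the parental libraries held 1 read. Setting 3 counts over the M11 group as a limit, Art3 was at least 490.1-fold lower in M11, which covers counting error only. Col8a1, a short-chain collagen of vessel walls and basement membranes, read 0.2, 0.125 and 0.0407 CPM in M11, 39.3, 44.7 and 31.2 CPM in M12, and 0.113, 0 and 0 CPM in the parental line. Ccbe1, a secreted factor needed for lymphatic growth (0.312, 0.188 and 0.0814 CPM in M11 against 32.8, 22.9 and 17.8 in M12), and Tmem185b followed the same pattern. These genes were thus on in M12 and nearly silent in both other lines. The actin bundler Lcp1, known mainly from leukocytes and carcinomas, was the most abundant of the 15 lowest, at 15.4, 15.2 and 11.6 CPM in M11, 346, 338 and 264 CPM in M12 and 1.76, 1.46 and 2.3 CPM in the parental line (log2 -4.48 ± 0.19, edgeR adjusted p = 1.9e-12). The non-canonical Wnt ligand Wnt5a (log2 -4.56 ± 0.45), the adenylate cyclase Adcy4 (log2 -4.89 ± 0.34) and the p38 kinase activator Map2k6 (log2 -3.76 ± 0.28) were lower in M11 too. Cxcl2, a neutrophil chemokine, was uneven: 0.802, 0.251 and 0.244 CPM in M11 against 23.4, 61.0 and 2.67 in M12, with a log2 fold change of -5.94 ± 1.11 that became -4.79 without M12 replicate 2, -6.86 without M11 replicate 1, and lost its call with limma-voom. Cd302, a C-type lectin receptor, and the small GTPase Gimap9 were lower in M11 than in M12 (log2 -6.40 ± 0.34 and -3.80 ± 0.21), and the mucin glycosyltransferase Galnt3 likewise (log2 -3.89 ± 0.23). Without M11 replicate 1 the values of Col8a1 and Cd302 became -8.72 and -7.01, and without M11 replicate 3 that of Tmem185b (-6.47) became -7.47.

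**Figure D2:**
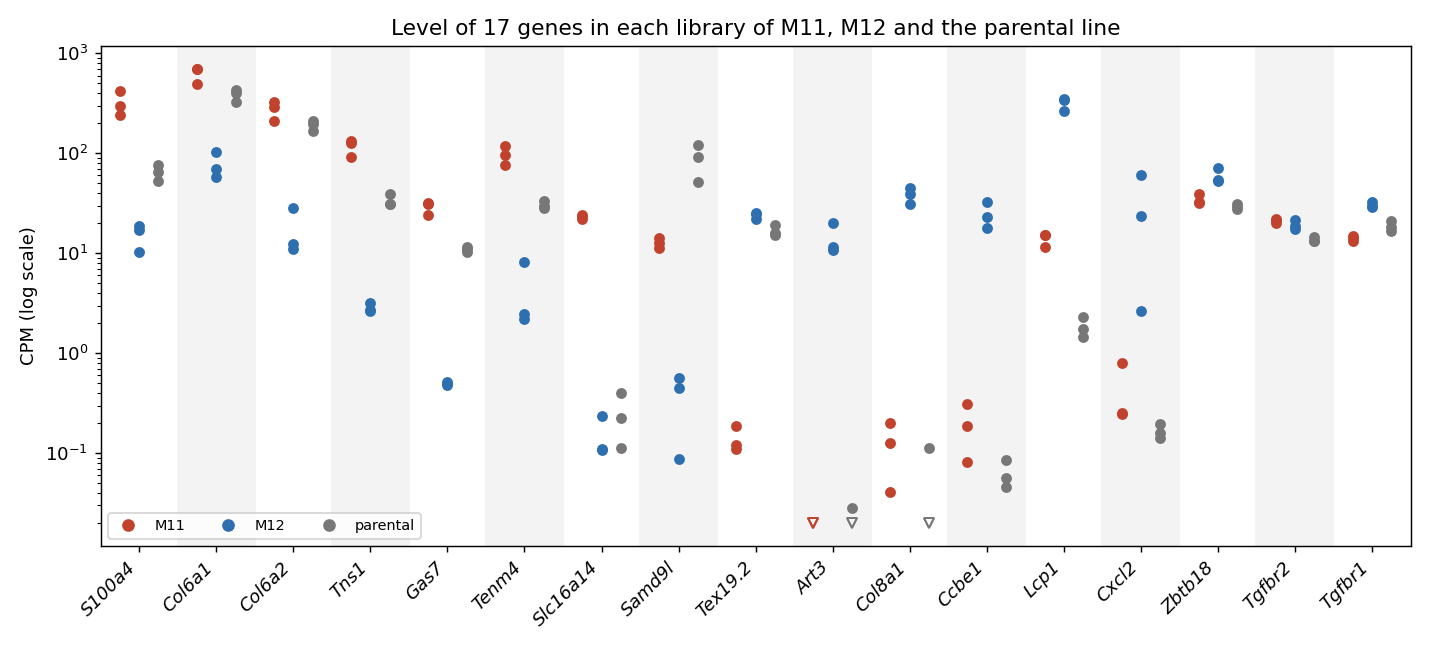
Points give CPM on a log axis for 17 genes in each of the 3 libraries of M11 (red), M12 (blue) and the parental line (grey), left to right within each gene; open triangles at the bottom are libraries with less than the axis can show, Art3 having 0 reads in M11. S100a4, Tns1, Gas7 and Tenm4 run from M11 down through the parental line to M12, while Col8a1, Ccbe1 and Lcp1 stand out in M12, and Tgfbr2 overlaps between M11 and M12.

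The abundant genes that differed most reliably, at 50 CPM or more in both lines, changed by modest folds. The secreted protein Oaf (299, 332 and 276 CPM in M11 against 105, 103 and 89.3 in M12), the adiponectin receptor Adipor2 (log2 1.17 ± 0.09), the formin Inf2 (log2 0.92 ± 0.08), the actin regulator Baiap2 (log2 0.86 ± 0.07) and the procollagen protease Bmp1 (log2 0.84 ± 0.07) were higher in M11. The annexin Anxa3 (88.1, 89.8 and 68.3 CPM in M11 against 183, 179 and 187 in M12), the seryl-tRNA synthetase Sars (log2 -1.03 ± 0.10), the histone methyltransferase Kmt5a (log2 -0.92 ± 0.08), the cholesterol esterifier Soat1 (log2 -0.85 ± 0.08), Lmbrd2 (log2 -0.95 ± 0.07) and Bri3bp (log2 -0.80 ± 0.08) were lower.

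Some genes were switched, meaning a mean of at least 1 CPM in one line and at most 0.1 CPM in the other with no overlap of libraries and a call past the threshold. There were 28 of them (0.181% of tested genes), 9 higher and 19 lower in M11, and 24 had official names. The 9 on in M11 were Ctsh (a lysosomal protease), Mgll (monoacylglycerol lipase), the transcription factor Gata4, the lymphocyte coactivator Pou2af1, Arfgef3, Ppfibp2, Cfap97d2, the Cdc42 exchange factor Fgd4 and the collagen-folding enzyme Fkbp14. Over the 3 libraries of each line, Fkbp14 had 271 reads in M11 against 3 in M12 (ratio 112 after library scaling, exact 95% interval 37.9 to 546), and its fitted log2 value of 6.65 became 7.64 without M12 replicate 1 and 6.04 without M12 replicate 2. Pou2af1 had 381 reads against 9. Ctsh, Mgll and Cfap97d2 were also on in the parental line, with 221, 155 and 235 reads there, so M12 stood apart at them. The others of the 9 had 3 to 20 reads in the parental line. The 15 on in M12 were Art3, Cep126, the IL-36 receptor Il1rl2, Tmem185b, the proteases Prss50 and Prss12, the repulsive guidance cue Sema3a, the focal adhesion scaffold Nedd9, Wfdc15a, Lrch1, Xkr5, Trim10, Tmem176a, Ankrd63 and Plac8. Cep126 had 1 read in M11 against 361 in M12, and Nedd9 had 5 against 366. Sema3a (3 reads in M11 against 237 in M12) and Xkr5 (8 against 224) were also on in the parental line, with 222 and 268 reads, whereas Cep126 and Nedd9 had 0 and 6 reads there.

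Several groups of extracellular matrix genes had more members higher than lower in M11. Called members made up 75% of tested collagen VI chains and 77.8% of fibrillar and other collagens. They made up 85.7% of matrix glycoproteins and proteoglycans and 64.3% of basement membrane genes, against 35.5% of all genes. Of the 4 tested collagen VI chains (6 listed), 3 were higher in M11 and the fourth, Col6a4, was at 0.103 CPM and not called. Collagen VI forms beaded microfibrils from chains encoded by Col6a1, Col6a2 and Col6a3. Col6a1 (chromosome 10, 76708792 to 76726168) read 498, 703 and 694 CPM in M11, 57.8, 68.9 and 103 CPM in M12, and 403, 430.0 and 329 CPM in the parental line, so that M12 was the line with the low level (log2 3.04 ± 0.18, M11 minus M12; edgeR adjusted p = 1.2e-10). Col6a2, its neighbour on chromosome 10, behaved alike, at 211, 288 and 323 CPM in M11 against 12.5, 11 and 28.1 in M12 and 198, 211 and 166 in the parental line. Col6a3 (chromosome 1) did not follow the parental pattern: it averaged 387 ± 15.7 CPM in M11, 104 ± 17 in M12 and 2.33 ± 0.575 in the parental line. Per length, the 3 chains stood at 209.8 ± 48, 91.3 ± 25.1 and 97.8 ± 10.6 TPM in M11 and at 26.4 ± 8.59, 5.85 ± 3.37 and 25.4 ± 4.55 TPM in M12.

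Of 9 tested fibrillar and other collagens (14 listed), 6 were higher and 1, Col8a1, was lower in M11, with a median log2 fold change of 1.08 against 0.0038 over all genes tested. Col3a1, a fibrillar collagen of elastic tissues, averaged 721 ± 115 CPM in M11, 183 ± 80.6 in M12 and 37.2 ± 1.37 in the parental line (log2 1.98 ± 0.22, M11 minus M12). Col5a1 and Col16a1 were higher in M11 by log2 1.08 ± 0.17 and 1.11 ± 0.12. Of 14 tested matrix glycoproteins and proteoglycans (28 listed), 10 were higher and 2 lower. Tgfbi, a TGF-β-induced integrin ligand, was the widest apart, at 20.2, 25.9 and 30.6 CPM in M11 against 1.13, 0.73 and 3.02 in M12 (log2 3.95 ± 0.32, and 4.82 without M12 replicate 3), and Tnxb, Fbln2 and Ecm1 were higher by log2 1.54 ± 0.14, 0.94 ± 0.15 and 1.22 ± 0.11. Osteopontin (Spp1, 228 ± 19 CPM in M11 and 447 ± 105 in M12) and Emilin1 were the 2 that were lower. Basement membrane genes split, 5 higher and 4 lower of 14 tested (22 listed): Col4a1, Col4a2 and Col18a1 were higher in M11 (Col18a1 at 1007 ± 207 CPM and 359 ± 40.2 CPM in M12) and the laminin binder Nid1 was lower (299 ± 26.1 and 490.3 ± 28.8 CPM).

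Proteases of the matrix split as well, with 4 higher and 4 lower of 18 tested (28 listed; 44.4% called, against 35.5% of all genes), and 8 lower with no filter on low counts. The membrane collagenase Mmp14 (191 ± 23.8 CPM in M11 and 116 ± 6.76 in M12), Mmp19, and the inhibitors Timp1 and Timp2 were higher. The sheddase Adam19 was lower, at 2.65 ± 0.426 CPM in M11 and 33.5 ± 11 in M12, with Plau, Adamts1 and Adamts4. Of 17 tested integrin chains (25 listed), 4 were higher and 3 lower in M11, a share of 41.2% called that is close to the 35.5% of all genes. The laminin-binding chains Itga6 (log2 0.95 ± 0.13) and Itgb4 (21.7 ± 5.98 CPM in M11 and 3.17 ± 1.59 in M12, log2 2.75 ± 0.34) were higher, while the leukocyte chain Itgb2 (16.9 ± 1.05 and 40.2 ± 2.21 CPM), Itgb7 and the muscle laminin receptor chain Itga7 were lower. The count of lower integrins was 5 without M11 replicate 3 and 5 without M12 replicate 2.

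Markers of other cell types were read beside these genes, since Col3a1, Lcp1 and Itgb2 are also genes of fibroblasts or leukocytes. Of 14 blood and immune markers, 10 stayed under 0.5 CPM in every M11 library and 10 in every M12 library. The pan-leukocyte gene Ptprc had 0 reads in M11 and 1 in M12, and Tyrobp and Cd3e had 0 in both. Cd68, Cd14 and Coro1a were lower in M11 (log2 -1.99 ± 0.53, -2.12 ± 0.23 and -0.92 ± 0.33), and the summed level of the list ran from 9.81 to 16.8 CPM in M11 and from 26.2 to 81 CPM in M12. The call of Cd68 was lost without M12 replicate 2 and that of Coro1a without any single M11 replicate or M12 replicate 2. Of 10 fibroblast markers, Col3a1 and Pdgfrb were higher and Gsn lower in M11, while Dcn, Lum, Fap and Col1a2 had at most 3 reads in either line. The list summed to 1180 to 1520 CPM in M11 and 964 to 1040 CPM in M12. The call of Gsn was lost without M11 replicate 1 or M12 replicate 2. Of 10 endothelial markers, Pecam1 (3.14 ± 0.0231 CPM in M11 and 0.348 ± 0.0737 in M12) and Eng were higher and Kdr and Tie1 lower, and Cldn5 had 0 reads in both lines; the list summed to 85.3 to 116 CPM in M11 and 56.1 to 82.8 CPM in M12, and the call of Eng was lost without M11 replicate 3 or M12 replicate 2. Of 12 lung epithelial markers, Sftpa1, Sftpc, Sftpd, Scgb1a1, Scgb3a2 and Nkx2-1 had 0 reads in both lines, Napsa was higher in M11 at 0.404 ± 0.209 CPM against 0.0782 ± 0.0476 in M12 (log2 2.38 ± 0.55, and 3.04 without M12 replicate 3), and the list summed to 6.07 to 8.83 CPM in M11 and 6.44 to 9.72 CPM in M12. In bulk libraries fewer cells of a kind and less RNA per cell cannot be told apart, and the part of other cell types in the results was not tested.

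Interferon-stimulated genes were higher in M11 than in M12: 25 of 40 tested passed the threshold in that direction in the edgeR test and 0 in the other (29 and 0 at an unadjusted p under 0.05), with a median log2 fold change of 2.03. Samd9l, an antiviral growth restrictor, was the widest apart, at 11.4, 14.1 and 12.7 CPM in M11, 0.565, 0.451 and 0.0882 CPM in M12, and 121, 92.6 and 51.2 CPM in the parental line (log2 5.16 ± 0.38, M11 minus M12). M11 lay above M12 in every library and below the parental line in every library. The ISG15 protease Usp18 had 2.98, 10.8 and 8.18 CPM in M11 against 0.149, 0.644 and 0.176 in M12, and Ifi27 averaged 50.7 ± 10.3 and 14.1 ± 4.28 CPM. The RNA sensors and effectors Oas1a (11.9 ± 3.11 CPM in M11 and 1.17 ± 0.638 in M12), Ifih1 (7.48 ± 2.33 and 1.58 ± 0.954), the guanylate-binding protein Gbp7 and Trim30a were higher in M11, as were the transcription factors Irf9 (28.1 ± 9.19 and 6.67 ± 1.85 CPM) and Irf7. Isg15 itself did not pass, with 8.11 ± 3.99 CPM in M11 and 4.88 ± 2.57 in M12 and overlapping libraries, nor did Ifit1 (8.31 ± 4.83 and 2.04 ± 1.94). The share of the list called was 62.5%, against 35.5% of all genes.

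The level of these genes varied between libraries of the same line. The 40 genes summed to 528, 826 and 719 CPM in M11, to 339, 433 and 331 CPM in M12, and to 2581, 1704 and 833 CPM in the parental line, so that every parental library was above every M11 library, the nearest values being 833 and 826 CPM, and every M11 library above every M12 library. Over the 40 genes the median difference was log2 -2.0 for M11 and -3.60 for M12 relative to the parental libraries, which both share. The 25 calls between M11 and M12 fell to 16 without M11 replicate 2, to 16 without M12 replicate 1, and to 15 with limma-voom. Usp18 kept its direction but not its call with limma-voom, and its log2 value was 5.44 without M12 replicate 2.

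Interferon-stimulated promoters commonly hold the interferon-stimulated response element, which IRF factors bind. A search for GAAANNGAAA on both strands (reverse form TTTCNNTTTC) in RefSeq promoters (GRCm38.p6) matched 29 of the 40 genes to a promoter and found the motif in 16 of them (55.2%), against 3.67% of the 10276 tested genes with a promoter. Of the 16 matched genes that were higher in M11, 6 held it (37.5%), and of the 13 that did not pass, 10 did (76.9%). The promoters of Samd9l, the widest apart, and of Oas1a, Ifih1 and Gbp7, called members that hold the motif, are shown with the motif in capitals: chr6:3399522-3399821 (minus strand), chr5:120907476-120907775 (minus), chr2:62646206-62646505 (minus) and chr3:142530086-142530385 (plus). In Oas1a a pair of overlapping matches starts 20 bases before the transcription start, and in Gbp7 the match starts 53 bases before it. No match in Samd9l says only that these letters are not in this window.
Samd9l: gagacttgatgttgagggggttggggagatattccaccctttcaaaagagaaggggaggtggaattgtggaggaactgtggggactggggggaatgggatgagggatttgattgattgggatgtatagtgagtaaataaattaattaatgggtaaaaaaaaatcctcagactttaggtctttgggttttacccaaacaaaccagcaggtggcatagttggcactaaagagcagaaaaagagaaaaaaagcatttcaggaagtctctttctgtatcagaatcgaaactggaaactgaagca
Oas1a: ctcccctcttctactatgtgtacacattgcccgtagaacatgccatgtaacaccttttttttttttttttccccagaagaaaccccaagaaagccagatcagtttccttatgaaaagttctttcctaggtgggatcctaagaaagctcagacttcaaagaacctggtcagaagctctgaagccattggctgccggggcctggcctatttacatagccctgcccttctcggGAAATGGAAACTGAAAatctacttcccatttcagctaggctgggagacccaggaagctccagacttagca
Ifih1: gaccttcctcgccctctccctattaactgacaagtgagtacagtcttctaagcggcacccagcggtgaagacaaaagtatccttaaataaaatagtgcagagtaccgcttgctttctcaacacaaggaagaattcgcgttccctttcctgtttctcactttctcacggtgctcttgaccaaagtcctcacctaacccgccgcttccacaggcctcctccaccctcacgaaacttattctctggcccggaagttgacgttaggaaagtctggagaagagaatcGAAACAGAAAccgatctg
Gbp7: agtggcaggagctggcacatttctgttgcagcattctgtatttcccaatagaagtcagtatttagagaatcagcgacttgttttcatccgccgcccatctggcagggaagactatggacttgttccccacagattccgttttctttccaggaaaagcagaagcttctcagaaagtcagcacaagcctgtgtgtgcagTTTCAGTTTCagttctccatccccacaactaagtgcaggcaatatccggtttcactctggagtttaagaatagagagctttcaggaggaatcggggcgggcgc

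MHC class I molecules present peptides from inside the cell to T cells. Of 17 tested genes of this route (20 listed), 9 were higher in M11 and 0 lower in the edgeR test (1 lower at an unadjusted p under 0.05, 1 with limma-voom, 0 with DESeq2, 2 with the replicate block in the 6 libraries alone, 2 with no filter on low counts, 2 on log2(TPM + 1), 1 on log2(TPM + 0.1) and 1 without M12 replicate 1), with a median log2 fold change of 0.40. The peptide transporter Tap1 averaged 50.7 ± 7.47 CPM in M11 and 19.9 ± 5.9 in M12, the immunoproteasome subunits Psmb8 51.6 ± 4.98 and 20.5 ± 2.76, and Psmb9 11.5 ± 0.76 and 1.87 ± 0.656. Nlrc5, the transactivator of MHC class I genes, was higher by log2 1.28 ± 0.15. The class I heavy chains H2-K1 and H2-D1 and the light chain B2m were higher by log2 0.85, 0.46 and 0.40. Ligands of immune checkpoints and natural killer receptors split, 2 higher and 4 lower of 12 tested (20 listed), and the higher count was 1 without M11 replicate 2. Called members made up 50% of these ligands and 52.9% of the MHC class I route, against 35.5% of all genes. The inhibitory ligand Vsir was higher (50.6 ± 9.86 CPM in M11 and 16.1 ± 4.02 in M12), and the nectin-like receptor ligands Pvr (77.1 ± 3.04 and 152 ± 35.4) and Nectin2 (19.3 ± 1.96 and 55.5 ± 7.06) were lower.

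Of 22 tested growth factors and receptor tyrosine kinases, 12 were lower and 6 higher in M11 (38 listed), with a median of -0.47. The share called was 81.8%, against 35.5% of all genes. The neuregulin receptor Erbb3 read 1.2 ± 0.225 CPM in M11, 7.88 ± 0.471 in M12 and 10.9 ± 1.89 in the parental line (log2 -2.70 ± 0.17, M11 minus M12). The EGF receptor ligand Hbegf (23.4 ± 3.65 and 64.5 ± 19 CPM) and Pdgfa (39.5 ± 2.29 and 73.1 ± 7.41) were lower, and the insulin receptor Insr (81.1 ± 6.28 and 50 ± 4.59), Igf1r, Fgfr1 and Erbb2 were higher. Pdgfa and Kdr lie on chromosome 5, described below. Of 21 tested chemokines and cytokines (29 listed), 4 were higher and 5 lower, 42.9% called against 35.5% of all genes. The lower count was 10 without M12 replicate 3. Il34, a ligand of the CSF1 receptor, was higher (34.5 ± 0.723 CPM in M11 and 21.5 ± 2.42 in M12) and Lif lower (1.13 ± 0.736 and 5.21 ± 2.8, log2 -2.12 ± 0.42, and -2.88 without M11 replicate 1). Of 18 tested Wnt ligands and antagonists (32 listed), 7 were higher and 4 lower; the 7 became 4 without M11 replicate 3 or M12 replicate 2, and 4 with the replicate block in the 6 libraries alone. Wnt11 was higher and Wnt5a and the LGR ligand Rspo1 (0.317 ± 0.0598 and 1.69 ± 0.21 CPM) were lower. The Notch pathway split 6 to 4 of 14 tested (20 listed): the target Hes1 was higher (20 ± 2.5 and 8.03 ± 2.09 CPM) and the ligand Dll1 lower (4.57 ± 0.489 and 12.3 ± 2.8). Called members made up 61.1% of the Wnt list and 71.4% of the Notch list, against 35.5% of all genes.

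Guidance cues and receptors were 7 higher and 4 lower of 29 tested (42 listed), a share of 37.9% called that is near the 35.5% of all genes, and the lower count was 2 without M11 replicate 1, M11 replicate 3 or M12 replicate 2. Netrin 1 (Ntn1), a secreted attractant, averaged 101 ± 27.9 CPM in M11, 21.3 ± 2.29 in M12 and 38 ± 1.03 in the parental line (log2 2.25 ± 0.20). Sema6d (20.5 ± 2.91 and 4.31 ± 1.67 CPM), Sema3b and Sema4c were higher in M11 too, and the switched gene Sema3a was lower (log2 -5.97 ± 0.66, and -6.63 without M11 replicate 1).

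The series concerns ZBTB18 and TGF-β signalling, so their genes were read in the pair. Zbtb18, a transcriptional repressor, read 39.5, 32.7 and 31.8 CPM in M11 and 53.8, 70.6 and 53 CPM in M12, without overlap (log2 -0.77 ± 0.11), against 30.8, 29.7 and 28.0 CPM in the parental line. The ligand-binding receptor Tgfbr2 overlapped between the lines (20.2, 21.6 and 22.2 CPM in M11 against 21.3, 17.7 and 18.9 in M12) and did not pass. The signalling receptor Tgfbr1 was lower in M11, at 14.2, 13.4 and 14.9 CPM against 32.7, 29.5 and 29.1 in M12 (log2 -1.10 ± 0.10). Of 23 pathway components tested, 8 were higher and 4 lower in M11; the 8 became 5 without M11 replicate 3 or M12 replicate 2, and the 4 became 2 without M11 replicate 2. Among the 8 were the ligand Tgfb3 (25 ± 3.35 CPM in M11 and 11.5 ± 2.73 in M12), the latent complex protein Ltbp3 and the effector Smad3. The share of components called was 52.2%, against 35.5% of all genes. Of 18 response genes (20 listed), 3 were higher and 4 lower in M11, 2 lower without M12 replicate 2; the 38.9% called is near the 35.5% of all genes. Tgfbi was among the higher and Nedd9 (log2 -5.81 ± 0.52, and -6.70 without M11 replicate 3) among the lower.

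Of 16 tested transcription factors and mesenchymal genes of epithelial-mesenchymal transition (20 listed), 8 were higher and 2 lower in M11, with 5 higher without M11 replicate 3. The share called was 62.5%, against 35.5% of all genes. Zeb1, a repressor of epithelial genes (77.4 ± 8.32 CPM in M11 and 45.1 ± 3.91 in M12), smooth muscle actin Acta2 (76.2 ± 20.9 and 25.1 ± 13.9) and Pdgfrb were higher. Snai2 was lower at a low level (0.148 ± 0.104 and 1.34 ± 0.219 CPM; log2 -3.03 ± 0.52, and -3.88 without M11 replicate 1), together with Twist1. Of 33 tested contractile and actin cytoskeleton genes (39 listed), 15 were higher and 4 lower, 57.6% called against 35.5% of all genes. The 15 became 8 without M12 replicate 2. The smooth muscle actin Actg2 (29.3 ± 2.37 and 7.03 ± 2.93 CPM) was higher and the myosin kinase Mylk (5.91 ± 1.02 and 14.1 ± 0.548) lower.

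Germline and pluripotency genes were 3 higher and 4 lower of 15 tested (31 listed), 46.7% called against 35.5% of all genes. Besides Tex19.2, the pluripotency factor Dppa2 was lower in M11 (3.19 ± 0.554 CPM in M11, 16.5 ± 0.529 in M12 and 5.37 ± 0.594 in the parental line), and the piRNA pathway gene Piwil4 (9.71 ± 0.274 and 3.61 ± 0.683) and the homeobox gene Rhox5 were higher. Of 10 imprinted genes tested (36 listed), 4 were lower in M11, with Impact at 22.1 ± 4.39 CPM in M11 and 68.0 ± 14.9 in M12. Only Igf2r was higher (log2 0.41), and its call was lost without M11 replicate 2 or 3 or M12 replicate 1 or 3. The share of imprinted genes called was 50%, against 35.5% of all genes. Of 16 tested DNA methylation enzymes, 6 were higher and 1, Dnmt3a, lower, 43.8% called against 35.5% of all genes. The 6 became 2 on log2(TPM + 1) and on log2(TPM + 0.1). The lower count was 0 without M11 replicate 1 or M12 replicate 3 and 2 without M12 replicate 2. The dioxygenase Tet1, which oxidises methylcytosine, read 1.14 ± 0.158 CPM in M11 and 0.139 ± 0.0712 in M12 (log2 2.99 ± 0.37). Of 41 tested chromatin modifiers (43 listed), 15 were higher and 7 lower, 53.7% called against 35.5% of all genes. The 15 became 6 on either TPM scale, and the counts were 8 and 4 with the 6 libraries alone. Nsd1, a histone H3 lysine methyltransferase, averaged 2.47 ± 0.493 CPM in M11, 0.261 ± 0.198 in M12 and 12.3 ± 0.817 in the parental line (log2 3.31 ± 0.39, M11 minus M12, and 3.98 without M12 replicate 1), while Nsd2 (235 ± 22.1 and 346 ± 41.6 CPM in M11 and M12) and Hmga1 (488 ± 48.4 and 723 ± 42.9) were lower in M11. Of the clustered protocadherins, 12 were higher and 2 lower of 35 tested (57 listed), 40% called against 35.5% of all genes. They share exons and near-identical copies, so the split of reads between them is uncertain; Pcdhb21 read 2.74 ± 0.368 CPM in M11 and 0.366 ± 0.237 in M12, and Pcdhgb2 1.95 and 7.1.

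Of 30 tested genes of serine and one-carbon metabolism and of the ATF4 stress response, 13 were lower and 4 higher in M11 (32 listed), with a median of -0.25. The share called was 56.7%, against 35.5% of all genes. Without M12 replicate 2 the counts were 8 lower and 2 higher, and without M11 replicate 3 there were 2 higher. The serine synthesis enzymes Phgdh (354 ± 20.5 CPM in M11 and 546 ± 9.65 in M12) and Psph (46.4 ± 4.53 and 92.2 ± 12.5), the glycine cleavage enzyme Gldc (5.07 ± 0.162 and 15.9 ± 1.8) and the stress factor Ddit3 (8.27 ± 0.135 and 31.5 ± 16.6) were among the lower. Hypoxia and glycolysis genes were 13 higher and 3 lower of 39, a share of 41% called that is near the 35.5% of all genes. Among them Pfkfb4 was higher (27.8 ± 1.63 and 13.9 ± 1.72 CPM) and Ndrg1 lower (81.2 ± 8.25 and 137 ± 28.2). Antioxidant genes of the NRF2 pathway were 13 higher and 5 lower of 33 (38 listed), 54.5% called against 35.5% of all genes. The 5 became 3 without M11 replicate 1, M11 replicate 2 or M12 replicate 1. The quinone reductase Nqo1 (71.5 ± 13.6 and 31 ± 11.2 CPM) was higher in M11. Sterol and fatty acid synthesis genes were 4 higher and 6 lower of 34, a share of 29.4% called that is under the 35.5% of all genes. The 6 lower became 11 with the replicate block in the 6 libraries alone and 12 with no filter on low counts. Without M11 replicate 1 or 2 or M12 replicate 1 or 3 they became 3. Targets of p53 and CDK inhibitors were 4 higher and 10 lower of 29 (32 listed), 48.3% called against 35.5% of all genes. The 10 became 6 without M11 replicate 1 or 3 and 4 without M12 replicate 2. The sestrin Sesn1 was higher (16.7 ± 2.19 and 8.24 ± 0.829 CPM) and the kinase Plk2 lower (16.8 ± 1.8 and 31.4 ± 7.19).

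Of 48 cell cycle genes (22.9% called, against 35.5% of all genes), 7 were higher and 4 lower (2 lower without M11 replicate 2 or M12 replicate 3), with the replication helicase subunits Mcm2 (170 ± 36.5 CPM in M11 and 103 ± 7.04 in M12) and Mcm5 (212 ± 32.2 and 133 ± 14.6) and the licensing factor Cdt1 among the higher. Of 42 nuclear oxidative phosphorylation genes (16.7% called), 6 were higher and 1 lower, the 1 becoming 2 with the replicate block and without M11 replicate 1 or M12 replicate 2. Of 58 ribosomal protein genes (12.1% called), 6 were higher and 1, Rpl6, lower; without M11 replicate 3 there were 13 higher, and there were 2 lower without M11 replicate 1 or M12 replicate 3 and 3 without M11 replicate 2 or with the replicate block. The mitochondrially encoded genes varied widely between the M11 libraries, their summed level being 33242, 22334 and 17478 CPM in M11 against 23752, 24510 and 23222 in M12. None of the 10 tested passed in the edgeR fit, and 1 at most in each direction did when any M11 replicate, M12 replicate 1 or parental replicate 1 was left out. At an unadjusted p under 0.05 there was 1 higher and 0 lower, DESeq2 and limma-voom called 0, and with no filter on low counts 3 were called higher and 1 lower. Myc, a growth-promoting transcription factor, was lower in M11 (404 ± 48.9 and 612 ± 24.2 CPM), and the ETS factors Etv1 (42.1 ± 7.7 and 17.4 ± 2.36) and Etv5 were higher.

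**Figure D3:**
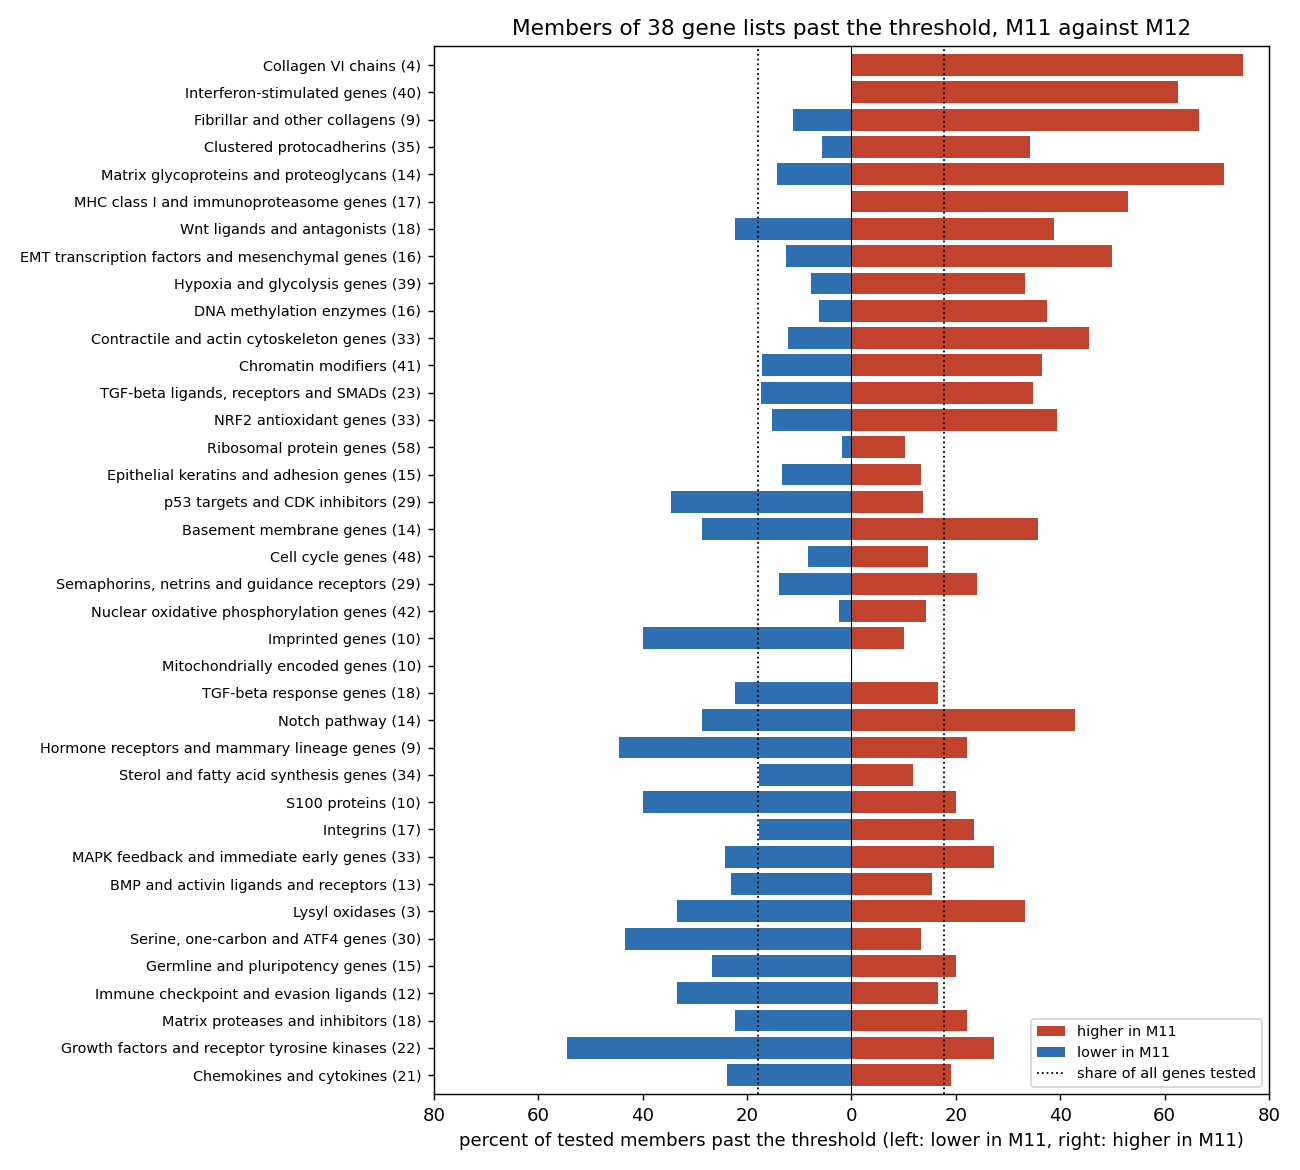
Bars give the percent of tested members of each of 38 gene lists (number tested in parentheses) that passed the threshold, to the right where higher in M11 (red) and to the left where lower in M11 (blue), ordered by median fold change; dotted lines mark the shares of all genes tested, 17.7% and 17.8%. Collagen VI, interferon-stimulated and other collagen genes lie at the top, and chemokines, growth factors and matrix proteases at the bottom.

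Differences between the lines were also arranged by chromosome. Genes of chromosome 5 had a median log2 fold change of -0.328, M11 minus M12, with 37 higher and 472 lower of 1006 tested. Genes of chromosome 6 (median 0.321, 331 higher and 46 lower of 737), chromosome 8 (0.316, 370 and 69 of 826) and chromosome 10 (0.239, 273 and 69 of 726) were shifted the other way. Chromosome 3 had a median of -0.13, with 73 higher and 237 lower of 768. The shifts were present in every library: the median deviation of chromosome 5 from the mean of the 6 libraries was -0.143, -0.157 and -0.129 in M11 against 0.166, 0.137 and 0.156 in M12, and that of chromosome 8 was 0.124, 0.125 and 0.161 in M11 against -0.139, -0.108 and -0.13 in M12. On those 5 chromosomes, picked after their values were seen, 1977 of 4063 tested genes passed (48.7%), and elsewhere 3497 of 11369 (30.8%). Differences of at least 2-fold were found at 405 of the 4063 tested genes on them (9.97%) and at 988 of the 11369 elsewhere (8.69%). With genes of 10 CPM or more alone, a restriction added after seeing the data, the medians were -0.37 for chromosome 5, 0.335 for chromosome 6, 0.343 for chromosome 8 and 0.25 for chromosome 10. Chromosomes 12 and 19 had smaller medians, -0.097 and -0.111. The gene lists and abundant genes above were not split by chromosome. Their counts can therefore include genes of the shifted chromosomes, as Pdgfa and Kdr of the growth factor list. What part of each list lies there was not tested.

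**Figure D4:**
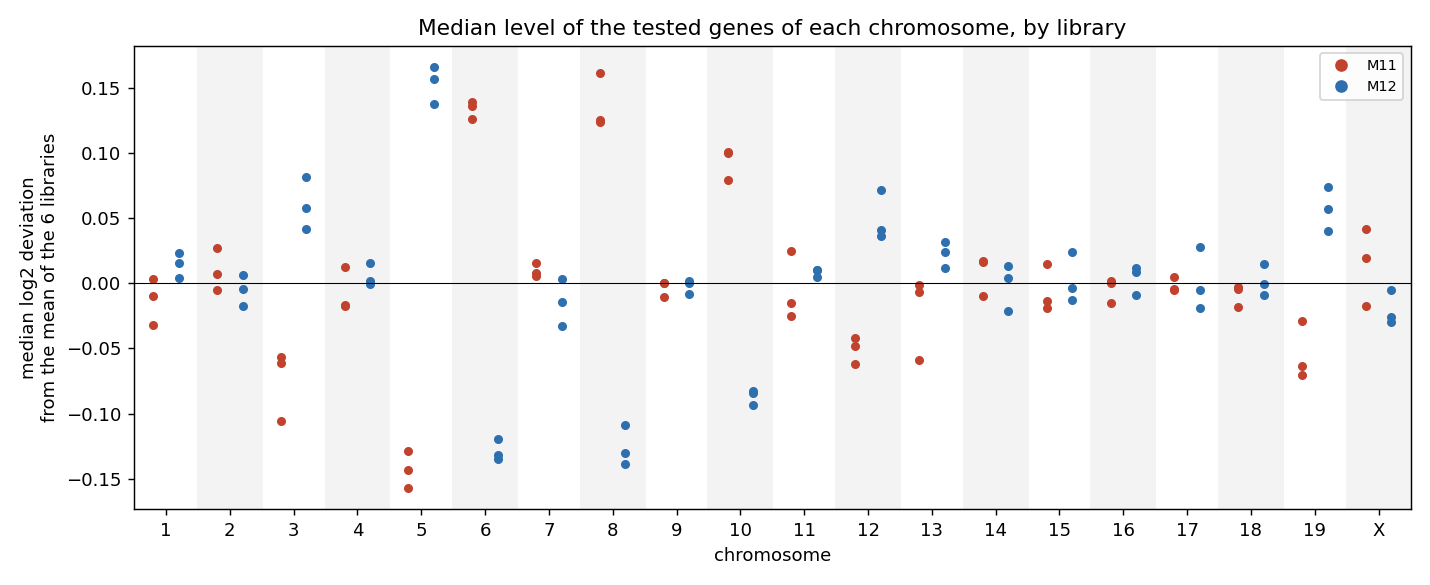
For each chromosome the points give the median, over its tested genes, of the log2 deviation of a library from the mean of the 6 libraries, for the 3 M11 libraries (red, left) and the 3 M12 libraries (blue, right). The widest gaps between the lines are on chromosomes 3, 5, 6, 8 and 10, with smaller ones on chromosomes 12 and 19.

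The same medians against the parental line, whose 3 libraries both comparisons share, differed between the chromosomes. On chromosome 5 the median log2 fold change was -0.278 for M11 and 0.041 for M12. On chromosomes 6, 8 and 10 it was 0.01, -0.009 and -0.074 for M11, and -0.305, -0.33 and -0.313 for M12. DNA copy number was not measured, and its part in these shifts was not tested.

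Along the chromosomes, windows of 25 consecutive tested genes located the shifts. Of 614 windows, 58 had a median of at least 0.3 and 44 of at most -0.3, of which 50 and 34 lay on the 5 chromosomes. On chromosome 5 all 40 windows were negative, from -0.53 to -0.082. On chromosome 3 the 17 windows from 4211718 to 95687917 had an overall median of -0.0095, and the 14 windows from 95734147 to 159938664 one of -0.348, with 24 genes higher and 167 lower of 343; the medians of that distal part against the parental line were 0.016 for M11 and 0.399 for M12. S100a4, with a far larger difference, lies at 90603771, outside the shifted part, and in the opposite direction to it. On chromosome 10 the 22 windows from 3973118 to 96622809 had a median of 0.316 and the 7 beyond 98914406 one of -0.086. Col6a1 and Col6a2 lie inside the shifted part of chromosome 10, their log2 differences of 3.04 and 3.99 being far above its median. On chromosome 8 the first 3 windows (3122061 to 13940522) had a median of 0.468, the next 7 (14027561 to 64969033) of -0.02 and the last 23 (66473118 to 129253594) of 0.367. In the middle stretch of chromosome 8 the medians against the parental line were -0.282 for M11 and -0.264 for M12, and in the distal stretch of chromosome 10 they were -0.360 and -0.274. The stretches were delimited after the values were seen and are described without a test.

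**Figure D5:**
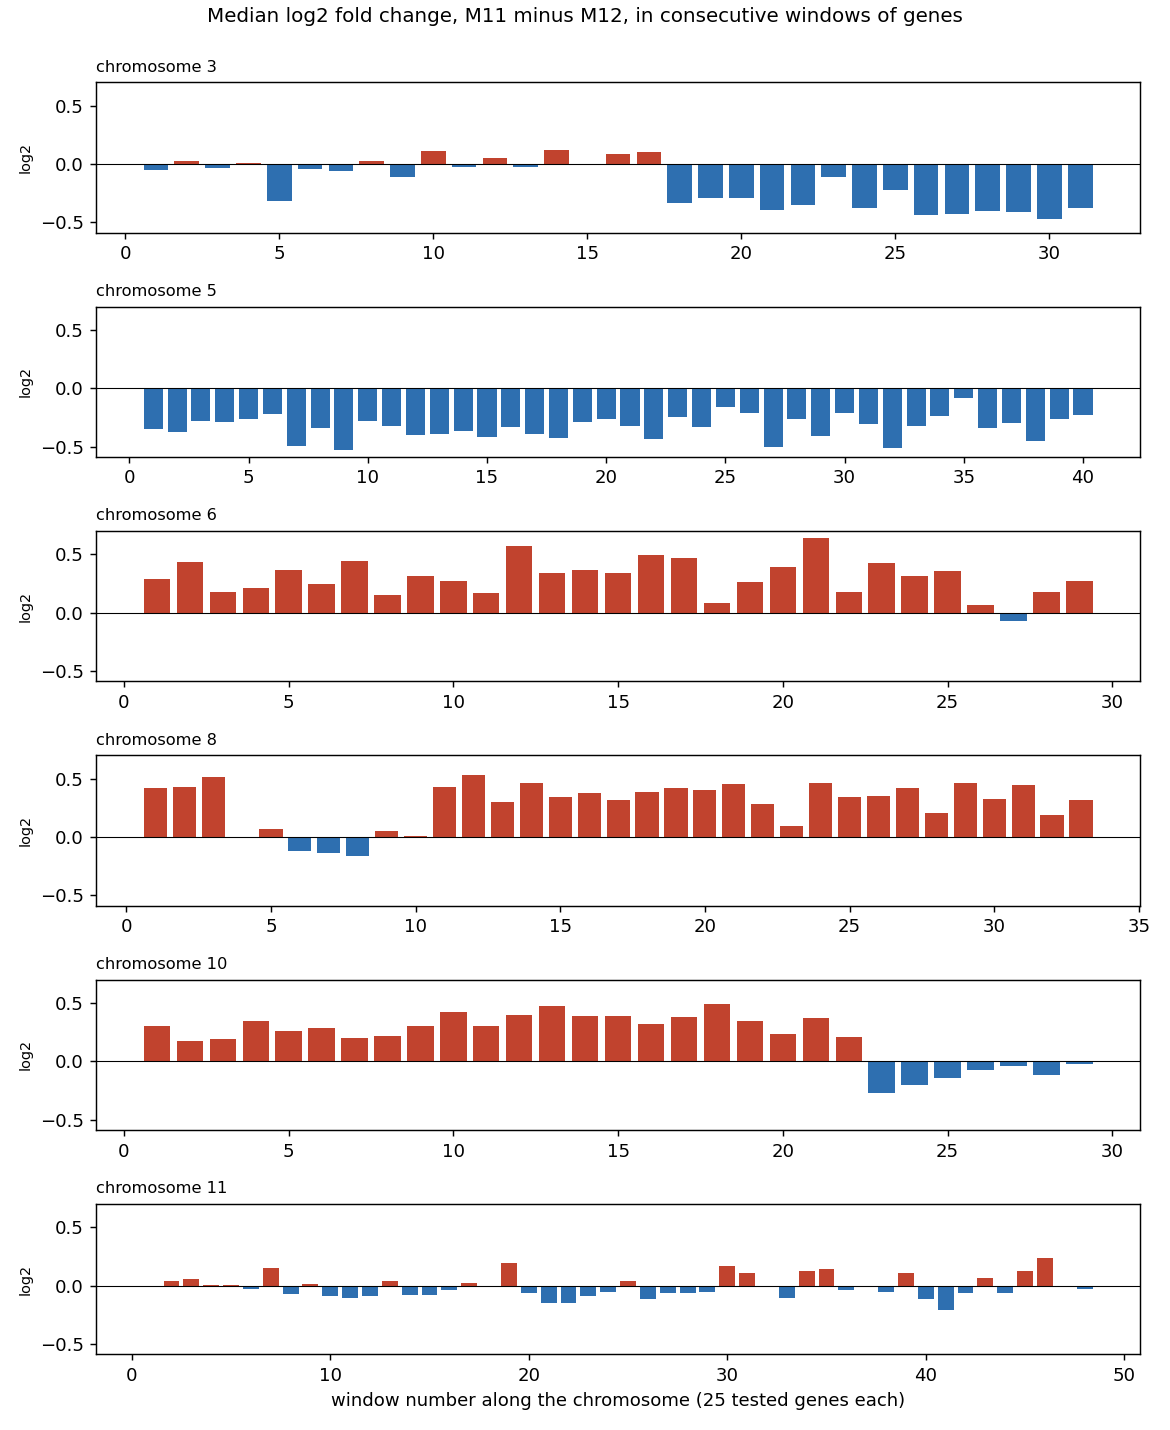
Bars give the median log2 fold change, M11 minus M12, of consecutive windows of 25 tested genes in order along chromosomes 3, 5, 6, 8, 10 and, as an unshifted example, 11; red bars are higher and blue bars lower in M11. The sign holds along chromosome 5, and steps are seen after window 17 on chromosome 3, windows 3 and 10 on chromosome 8 and window 22 on chromosome 10.

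The most extreme windows held gene families. The window with the lowest median (-1.43) lies on chromosome 4 from 144892827 to 147060794, where 15 of 25 genes were lower in M11 and 1 higher. It holds a cluster of KRAB-type zinc finger genes, among them Zfp600 (1.29, 1.13 and 0.814 CPM in M11, 13.5, 17.9 and 12.1 CPM in M12, and 16.3, 16.2 and 15.8 CPM in the parental line), Zfp980 (log2 -3.05 ± 0.23), Zfp987 and Zfp989. The median of the window against the parental line was -1.33 for M11 and -0.241 for M12. Such zinc finger genes are close copies, and the share of reads given to each is uncertain; the call of Zfp989 (-2.45) was lost without M12 replicate 1 and its value was -3.11 without M11 replicate 1. On chromosome 7 the window from 102441695 to 105581653 (median 0.538) holds the interferon-stimulated Trim cluster. In it Trim30a, Trim12c, Trim34a and Trim30d were higher in M11 by log2 3.88 ± 0.53, 2.04 ± 0.39, 2.53 ± 0.60 and 2.67 ± 0.62, with Trim34a at 3.15 without M12 replicate 2 and Trim30d at 3.79 without M12 replicate 1. Another window of chromosome 7 (19756131 to 24237560, median -0.55) holds the carcinoembryonic antigen genes Ceacam16 and Ceacam19, both lower in M11, beside Pvr. The log2 value of Ceacam19, -4.26, became -0.13 on log2(TPM + 1), where its call was lost. It was -3.56 without M11 replicate 1 and -6.57 without M11 replicate 3. The remaining extreme windows lie within the shifted chromosomes 5 and 6.

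The parental libraries placed the differences. Of the 651 genes at least 2-fold higher in M11, the parental mean was nearer to M11 for 394 (60.5%) and nearer to M12 for 257. Of the 742 at least 2-fold lower in M11, it was nearer to M11 for 540 (72.8%) and nearer to M12 for 202. Col6a1, Tle2, Mbnl3, Col8a1, Ccbe1 and Art3 are genes at which M12 stood apart, and Tex19.2, Slc16a14, Gnao1 and Zfp600 genes at which M11 did. Without parental replicate 1 the counts nearer to M11 were 395 and 552. Against the parental line 6288 genes passed for M11 (40.7%) and 7737 for M12 (50.1%). Of all tested genes, 7.02% were at least 2-fold higher and 4.54% at least 2-fold lower in M11 than in the parental line, and 9.25% and 6.1% in M12, comparisons that share the 3 parental libraries.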

How the data were processed

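RNA-seq was read in 21 libraries, 3 in each of 7 groups, of which M11, M12 and the parental line are reported. The authors deposited expected counts per gene from RSEM, not normalised, and TPM scaled for gene length; the submitters' processing notes name RSEM, STAR 2.7.1a, Trim Galore and, among others, GATK 4.1.2.0, with mm10 as the build, and the annotation release is not given in the sources used here. Of 55573 genes, 1.28% of values were not whole and were rounded; 92 spike-in entries were left out, and 0 columns were unmapped. Groups and replicate numbers came from the sample titles.

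Counts were analysed with edgeR 4.0.16 in R 4.3.3: TMM scaling, the package's filter by group (15432 genes kept), and a robust quasi-likelihood F-test fitting 1 mean for every group across the 21 libraries, which leaves 14 residual degrees of freedom, two-sided, with Benjamini-Hochberg adjustment over all genes and a threshold of 0.05. CPM are TMM-scaled. Fold changes are M11 minus M12 on the log2 scale, with SE as the absolute fold change over the square root of F. Where a line had 1 to 3 reads the ratio carries an exact 95% conditional interval; intervals and limits cover counting error only. Positions are from GENCODE vM21, which places 15422 of the tested genes. The edgeR call between M11 and M12 was tried on simulated counts with planted fold changes. The simulation gave all groups the same spread for a gene. It therefore cannot show how the call behaves where M11 and M12 spread more than other groups. The other statistics were not tried in this way.

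The lines, gene lists and lists' members were chosen with earlier results of these data known. Genes named are S100a4, Col6a1, Tex19.2, Zbtb18, Tgfbr2 and Tgfbr1; the 15 highest and 15 lowest fold changes among called genes of at least 2-fold, at least 5 CPM in the higher line, no overlap and an official name; 6 abundant genes each way (at least 50 CPM, 1.5-fold); up to 4 called members of each list by p; switched genes; and up to 4 genes of the 6 most extreme windows. Other list members are named to complete a count, or for their role, after their values were seen.

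Deviations of same-numbered M11 and M12 libraries correlated at 0.129, 0.233 and 0.12 (other pairs -0.175 to 0.047), all over 0.1, although no label says what a number marks. The reported fit does not pair the libraries, and pairing by number enters only as the replicate block among the alternatives. Alternatives were DESeq2 1.42.0 (test or size factors), limma 3.58.1 (voom, or log2 of TPM plus 1 or 0.1), other filters, the 6 libraries alone, a replicate block, thinned counts and leaving out each replicate. Some genes that the rule takes are not reported here.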

Additional observations from a re-analysis of the deposited data

Results flagged for a closer look

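These genes, named in the report, switched or members of a list, passed the threshold with at least 2-fold differences from the parental line in opposite directions in M11 and M12, so that a difference between the lines follows from how they were chosen; its size (edgeR, M11 minus M12) is given as a description. Both comparisons share the 3 parental libraries, and over all genes 32 met this rule, 18 higher and 14 lower in M11. Higher in M11 and lower in M12 than in the parental line were S100a4 (log2 4.37), Tns1 (5.36), Rufy4 (5.72), Gas7 (5.85), Tafa5 (5.86), Tenm4 (4.48), Arfgef3 (5.27), Ppfibp2 (6.19), Fgd4 (6.38), the integrin chain Itgb4 (2.75), the immunoproteasome subunit Psmb9 (2.60), the surface antigen Ly6a (2.22) and the early response factor Egr3 (3.53). Lower in M11 and higher in M12 than in the parental line were Cd302 (log2 -6.40), Gimap9 (-3.80) and Tmem176a (-3.83). Tns1 and Rufy4 are neighbours on chromosome 1. Leaving out 1 library moved 4 of these by over 1.5-fold: Tenm4 to 5.39 without M12 replicate 3, Ppfibp2 to 7.18 without M12 replicate 1, Fgd4 to 5.79 without M12 replicate 2 and Cd302 to -7.01 without M11 replicate 1.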

How the results depend on the processing

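The alternatives were run per gene on the 227 called genes that the naming rule takes, and 0 of these changed direction; other genes named in the text were not followed one by one. Genes past the threshold numbered 3497 (1734 higher and 1763 lower in M11) with the 6 libraries alone. There fewer libraries inform the spread, and the groups with a smaller SD between replicates are left out. On log2(TPM + 0.1), 1813 were higher and 2597 lower, and on log2(TPM + 1), 1822 and 2708. The even split of directions as reported was thus not kept on either TPM scale. At least 2-fold calls numbered 467 (203 higher, 264 lower) on log2(TPM + 1), whose pseudocount shrinks low genes, and 487 were lower with a filter of 1 CPM in 3 libraries, which tests fewer genes. Leaving out 1 replicate of M11 or M12 gave 4715 to 5341 called genes, 2351 to 2706 higher and 2307 to 2635 lower; 1326 to 1563 at least 2-fold, 618 to 700 higher and 649 to 874 lower; and 27 to 32 switched genes. Without parental replicate 1 there were 5706 called genes, 2847 higher and 2859 lower. With the replicate block 5857 genes passed, and 5353 with the block in the 6 libraries alone; of 227 named calls that block lost only Loxl2, and the block in all libraries lost none. Of those calls, 227 were kept with DESeq2 size factors, 226 with DESeq2, 222 with limma-voom, 215 of 224 with the 6 libraries alone and 217 to 224 when a replicate of M11 or M12 was left out. The median over all genes, 0.0038 as reported, lay farthest at -0.0409, on log2(TPM + 0.1). Switched genes rest on few reads in the lower line. On log2(TPM + 0.1) the members higher in M11 were also fewer among EMT genes (5, against 8 as reported), TGF-β components (4, against 8), Notch genes (3, against 6), early response genes (5, against 9), hypoxia genes (7, against 13) and contractile genes (8, against 15). Chemokines and cytokines lower in M11 numbered 14 with no filter on low counts, 8 with DESeq2 and 3 with limma-voom, against 5 as reported.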

Other observations

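Further gene groups held members in both directions. Of 33 tested MAPK feedback and immediate early genes, 9 were higher and 8 lower in M11, with Dusp2 among the higher and Fosb and Spry4 among the lower. The share called was 51.5%, against 35.5% of all genes. Of 13 BMP and activin genes, 2 were higher (Bmp1 and the receptor Bmpr1a) and 3 lower (the receptor Acvrl1, the inhibitor Fst and the ligand Bmp7). The 38.5% called is near the 35.5% of all genes. Of 9 hormone receptor and mammary lineage genes (66.7% called), Ly6a and Sox9 were higher and Krt18, Aldh1a3, Foxa1 and Procr lower. Of 15 epithelial keratin and adhesion genes (26.7% called, under the 35.5% of all genes), Epcam and the junction gene Jup were higher and Ovol1 and Krt18 lower. The higher count was 1 without M11 replicate 2 or 3, and the lower count was 4 without M12 replicate 2. Of 3 lysyl oxidases, which cross-link collagen, Loxl3 was higher and Loxl2 lower, and the call of Loxl2 was lost with the replicate block in the 6 libraries alone and without M11 replicate 1 or 2 or M12 replicate 1 or 3.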
